A study of Mus musculus with 12 samples.

Results

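The 85 genes described here are the mouse metalloproteinases of the ADAM, ADAMTS and MMP families, the ADAMTS-like proteins and the TIMP inhibitors. They were chosen by symbol among the 45792 genes of the deposited tables, as every symbol made of Adam, Adamts, Adamtsl, Mmp or Timp followed by a number and at most a letter a or b. They comprised 33 Adam, 19 Adamts, 5 Adamtsl, 24 Mmp and 4 Timp genes, with 84 symbols because Mmp27 stood on 2 Ensembl identifiers. RNA was measured in 12 libraries of passaged neural stem cells (NSCs) from the forebrains of newborn pups, grown without serum in EGF and FGF. The 3 groups of 4 libraries were WT (C57BL/6) NSCs without treatment, NSCs of mice lacking Ncf1 (Ncf1-/-) given vehicle, which the labels list as untreated, and Ncf1-/- NSCs given recombinant mouse Igfbp2 at 100 ng/ml, as the labels state the dose. The 2 Ncf1-/- groups were treated 48 h after plating, and RNA was collected after a further 48 h. Ncf1 is an organizing subunit of the Nox2 NADPH oxidase, and Igfbp2 is a secreted binding protein of insulin-like growth factors. The comparisons ask how loss of Ncf1, and supply of Igfbp2 in its absence, alter gene expression in NSCs.

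ADAM proteins are membrane-anchored, and their active members cut the extracellular part from receptors, growth factors and adhesion molecules, a step called shedding. ADAMTS enzymes are secreted and act on the proteoglycans and collagens of the extracellular matrix, whereas ADAMTS-like proteins lack the protease domain. MMPs degrade matrix proteins, either secreted or held at the cell surface, and TIMPs block the active site of MMPs and of some ADAM and ADAMTS enzymes. In the brain these proteins are known for remodeling the proteoglycan-rich matrix and for Notch and growth factor signaling in the stem cell niche.

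Each library held between 18201622 and 34086554 expected counts, and the 85 genes took between 0.149% and 0.262% of them. Levels are given as CPM, the read count relative to the library total scaled by its TMM factor. The genotype could not be read from Ncf1 itself, which had between 1 and 7 counts in every library. Cell type markers differed between the groups: 6 oligodendrocyte genes summed to between 1483 and 8961 CPM in WT, against 192 to 247 CPM in vehicle-treated and 208 to 281 CPM in Igfbp2-treated Ncf1-/- NSCs. WT replicate 3 had the lowest oligodendrocyte sum of the WT libraries. In contrast, 5 oligodendrocyte precursor genes summed to 1733 to 2357 CPM in WT, 1944 to 2100 CPM with vehicle and 1950 to 2051 CPM with Igfbp2. With the edgeR test used below, 2 of these 5 rose and 3 fell in vehicle-treated Ncf1-/- NSCs against WT (100% called, against 57.2% of all genes). Of 6 microglia genes 1 passed the count filter, C1qa had 0 counts in every library, and all 5 endothelial genes together summed to at most 6.04 CPM. The 8 neural stem cell genes were detected in every group, with sums of 3198 to 8979 CPM in WT and 8366 to 9205 CPM in Ncf1-/- NSCs. Against WT 3 of them (Nes, Fabp7 and Hes1) rose and 4 (Sox2, Msi1, Prom1 and Slc1a3) fell in vehicle-treated Ncf1-/- NSCs. By the edgeR test used below this is 87.5% called, against 57.2% of all genes. The 4 Y-linked genes used as markers summed to between 105 and 118 CPM in WT replicates 1 to 3 and in all 4 libraries of vehicle-treated Ncf1-/- NSCs, but to between 6.46 and 9.18 CPM in the Igfbp2-treated libraries and WT replicate 4. Xist was at 3.87, 3.89 and 5.22 CPM in WT replicates 1 to 3 and at 291 CPM in WT replicate 4. It ranged from 72.3 to 87.8 CPM in vehicle-treated and from 166 to 275 CPM in Igfbp2-treated Ncf1-/- libraries. The vehicle-treated libraries thus had a Y-linked level like that of WT replicates 1 to 3, but more Xist. The reason was not tested. In the treatment comparison, Igfbp2 and this sex-linked difference therefore cannot be told apart, although the methods describe vehicle-treated and Igfbp2-treated cultures of the same animals. A second sample sheet in the code of the study gives WT replicate 4 another treatment, so counts are also given without it.

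Of the 85 genes, 50 passed the filter on low counts and were tested, and 23 had 0 counts in all 12 libraries. The silent genes were 13 ADAMs of the testis and other tissues, all 4 collagenases, 3 other MMPs, 2 genes of the stromelysin and matrilysin group and the sheddase Adam33. A group of 10 Mmp genes lies in a cluster between 7272514 and 7699585 on chromosome 9 of GRCm38, and 8 of them had 0 counts. Mmp12, the macrophage elastase, was the 1 gene of this cluster that passed the filter, and Mmp3 had 7 counts over the 12 libraries.

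Many inducible MMP promoters carry a site for AP-1, the Fos and Jun transcription factor. The letters TGANTCA, which read alike on both strands, were searched in the 250 bases before the start sites listed in the RefSeq promoters of GRCm38.p6. A promoter was listed for 53 of the 84 symbols, 58 promoters in all, and 12 of these symbols (22.6%) had the letters. Of all 32851 promoters 6.75% had them, a share of promoters rather than of symbols. Of the 12, 8 were genes of the chromosome 9 cluster. By testing, 10 were among the 22 untested genes that had a promoter and 2 among the 31 tested ones, Mmp12 and Adam19. The higher share of the families thus came from the untested genes. The windows shown are those of 4 clustered genes and of Adam19, the most abundant gene that held the letters, with the match in capitals and 10 bases on each side, read in the direction of transcription.
Mmp13: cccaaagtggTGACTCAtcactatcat
Mmp3: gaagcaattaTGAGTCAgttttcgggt
Mmp10: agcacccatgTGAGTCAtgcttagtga
Mmp12: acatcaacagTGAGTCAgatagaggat
Adam19: gtccttcaccTGAGTCAgcgatgctcc
The windows lie on the plus strand at chr9:7272469-7272495, chr9:7445766-7445792, chr9:7502269-7502295, chr9:7347320-7347346 and chr11:46055843-46055869. In Mmp13, Mmp3, Mmp12 and Mmp10 the match began 35, 46, 44 and 63 bases before the start site, and in Adam19 131 bases before it. Mmp13 and Mmp10 had 0 counts in these libraries, while Adam19 had 23533 counts in all. The motif was chosen with the values known, and a match is no evidence of binding.

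Among the tested genes, levels per length (CPM per kb of the effective length that RSEM gives) were compared between genes. In WT NSCs the highest were Mmp14 (67.0 ± 14.6, SD, n = 4), the aggrecanase Adamts4 (57.7 ± 32.5), Mmp15 (44.9 ± 6.03), Timp2 (40.3 ± 9.35), Timp3 (40.2 ± 8.15), Adam10 (34.9 ± 5.58) and Adam9 (33.2 ± 4.69). These neighbors in the order overlapped in their ranges over libraries. In Igfbp2-treated Ncf1-/- NSCs Mmp15 (113 ± 15.1) and Mmp14 (102 ± 3.02) stood above Adam10 (59.8 ± 3.71) and Adam9 (47.5 ± 2.78), and the Mmp14 and Mmp15 ranges overlapped. Timp4 was at 8.03 ± 3.16 in WT and 39.8 ± 3.46 in vehicle-treated Ncf1-/- NSCs, where it exceeded Timp2 (17.7 ± 1.55) and Timp3 (22.8 ± 0.830).

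**Figure D1:**
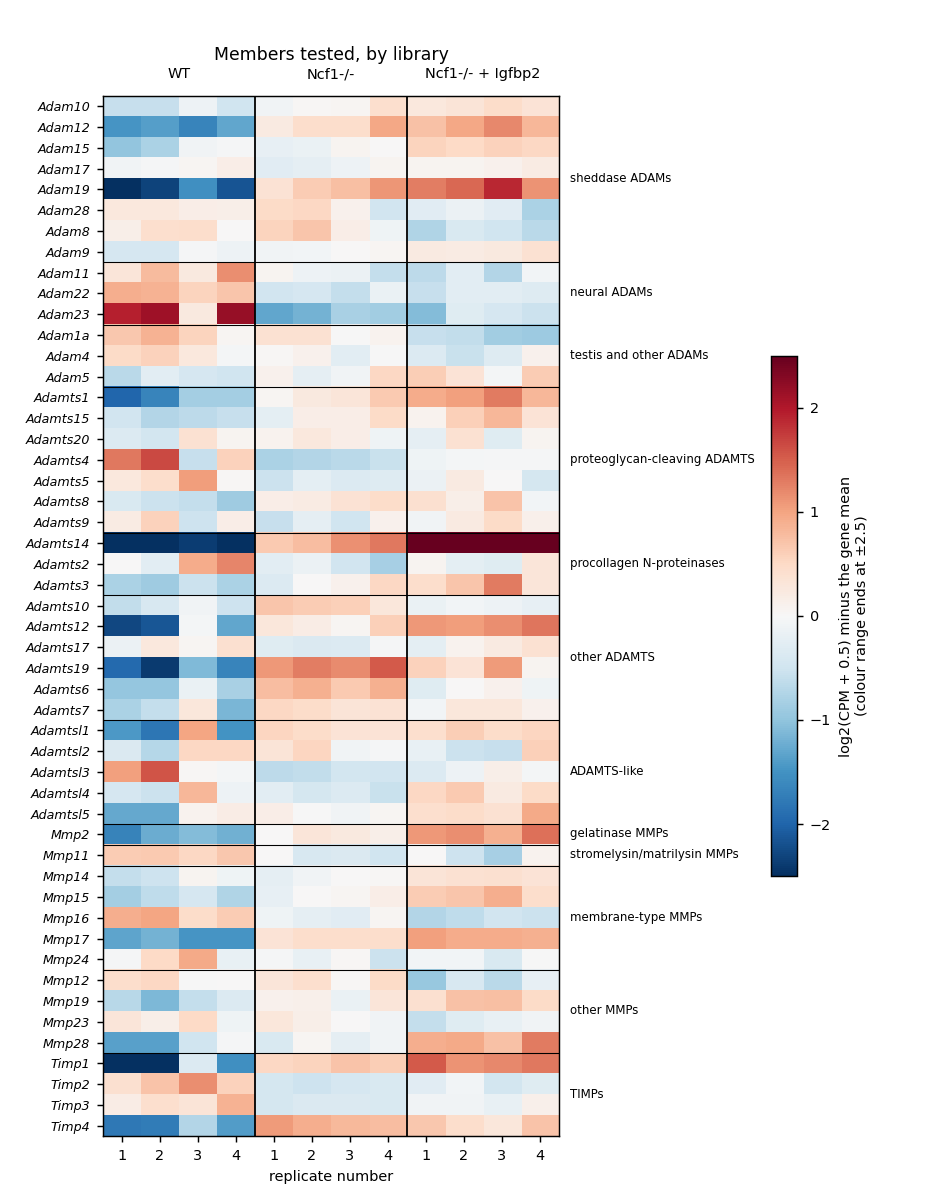
Heat map of the 50 tested genes (vertical axis, grouped by role) in the 12 libraries (horizontal axis, replicate number within group), coloured by log2(CPM + 0.5) minus the gene's mean over the libraries. Adamts14, Adam19 and Timp4 are low in all 4 WT libraries, Adam23 is high in WT replicates 1, 2 and 4, and Adamtsl1 is high among WT libraries in replicate 3.

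Between vehicle-treated Ncf1-/- and WT NSCs, 32 of the 50 tested genes passed an edgeR adjusted p of 0.05, 20 higher and 12 lower in Ncf1-/- NSCs. Over all 15706 genes tested, 57.2% were called in this comparison, 28.9% higher and 28.2% lower. The median log2 fold change was 0.21 over the 50 genes and 0.02 over all genes. In this RNA from whole cultures, fewer cells of a type and less RNA per cell cannot be told apart. The groups did not overlap for 29 of the 50 genes, against 51.2% of all genes. Left out in turn, the libraries gave between 32 and 37 calls, with 36 without WT replicate 4 and 37 without WT replicate 3.

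Between Igfbp2-treated and vehicle-treated Ncf1-/- NSCs, 18 of the 50 genes were called, 12 higher and 6 lower with Igfbp2. The background was 25.0% of all genes, 14.2% higher and 10.7% lower. The median log2 fold change was 0.33 over the 50 genes and 0.04 over all genes, and the groups did not overlap for 29 genes, against 34.1% of all genes. The split of directions moved with the scaling. When only the library totals were used for scaling, the median of all genes moved to -0.23 and 15 of the 50 genes were called, 5 higher and 10 lower. Of the 18 calls, 10 were made with every library left out in turn, 5 higher (Adamts14, Mmp2, Mmp15, Mmp17 and Mmp28) and 5 lower (Adam1a, Adam8, Adamts6, Adamts10 and Mmp12), and all 10 were also made with library totals. Of the other 8, Mmp16 was called with library totals and with the replicate block, and the calls of Adam9, Adam15, Adam19, Adamts1, Adamts3, Adamtsl4 and Mmp14 were lost in both. The count fell to 11 without vehicle-treated replicate 1 or 2 or without Igfbp2-treated replicate 2, rose to 28 without WT replicate 3, and was 17 without WT replicate 4. With the replicate number as a block it was 12, with 5 higher and 7 lower. The 3 groups share 1 estimate of the spread, so the WT spread also enters this test. The coefficient of variation between replicates, from edgeR, was 0.25 in WT, 0.118 with vehicle and 0.122 with Igfbp2. With the summed Y-linked level as a covariate 0 of the 50 genes and 5 of all genes were called. On the log2 scale this level was 6.72 to 6.85 in the vehicle-treated and 2.96 to 3.20 in the Igfbp2-treated libraries. Only WT replicate 4 (2.69) stood far from its group. The fit therefore cannot separate treatment from this level, and the loss of calls decides nothing.

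Set against WT, the Igfbp2-treated Ncf1-/- NSCs differed in 40 of the 50 genes, 24 higher and 16 lower, against 62.4% of all genes, 31.6% higher and 30.8% lower. The median log2 fold change was 0.50 over the 50 genes and -0.01 over all genes, and the groups did not overlap for 33 genes, against 54.3% of all genes. This comparison shares its libraries with the other 2, so its values are not an independent repeat of either. Without WT replicate 4 the count was again 40. With the Y-linked covariate, whose slope rests mostly on WT replicate 4, it was 30.

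**Figure D2:**
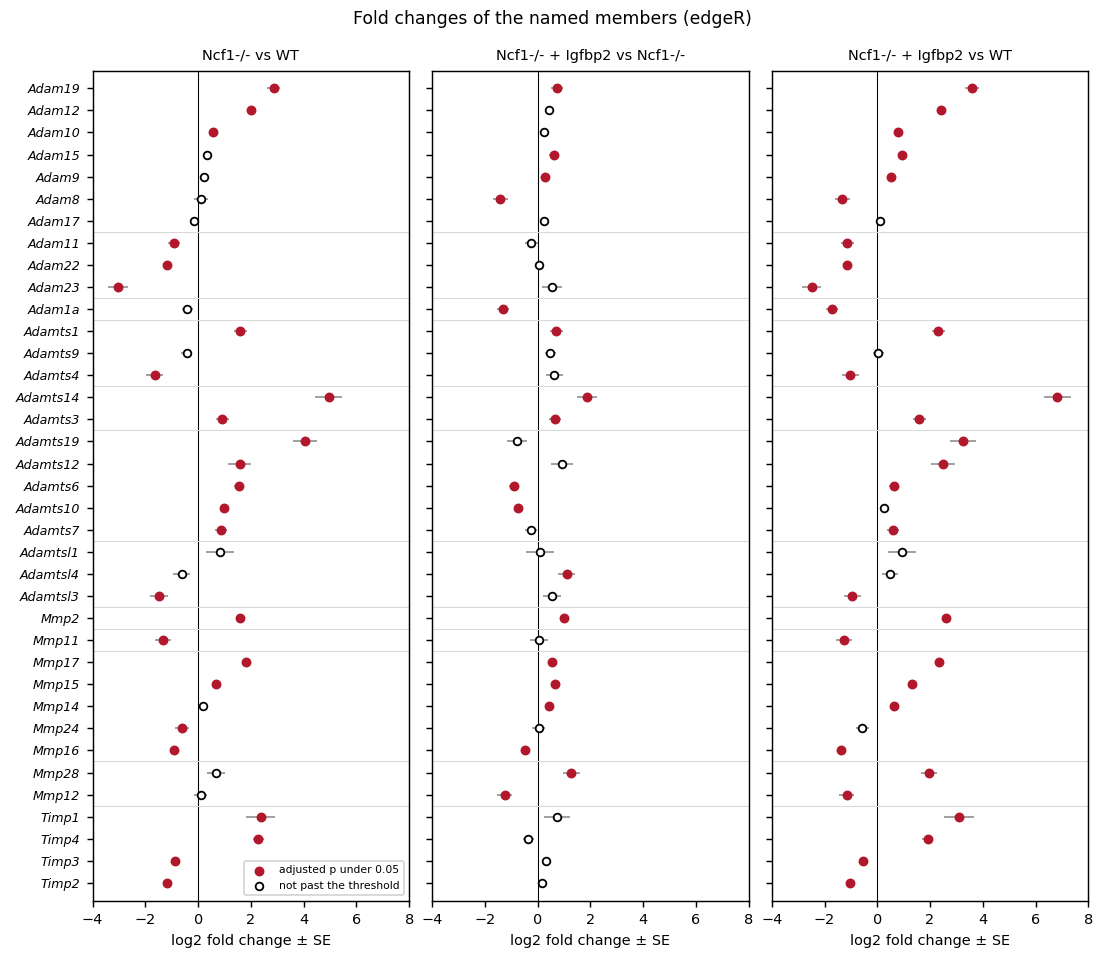
Log2 fold change with its standard error (horizontal axis) of the 37 named genes (vertical axis, grouped by role) in the 3 comparisons, from edgeR. Filled points passed an adjusted p of 0.05, and Adamts14 had the largest rise in each panel (4.95, 1.88 and 6.83).

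The sheddase group held 9 ADAMs with a protease domain, of which 8 were tested. In Ncf1-/- NSCs 3 rose and 0 fell against WT, with Igfbp2 3 rose and 1 fell against vehicle, and in Igfbp2-treated against WT NSCs 5 rose and 2 fell. The called shares were 37.5%, 50% and 87.5%, against 57.2%, 25.0% and 62.4% of all genes. Adam19 (meltrin beta, chr11:46055992-46147343), which sheds neuregulins, was at 9.82, 11.6, 20.3 and 13 CPM in WT, 77.1, 92.8, 101 and 129 CPM in vehicle-treated Ncf1-/-, and 146, 163, 224 and 132 CPM in Igfbp2-treated Ncf1-/- NSCs. Every Ncf1-/- library was above every WT library, and the 2 Ncf1-/- groups did not overlap. The log2 fold changes, here and below with their standard error, were 2.86 ± 0.24 for Ncf1-/- against WT (edgeR adjusted p = 9.33e-07), 0.73 ± 0.22 for Igfbp2 against vehicle (adjusted p = 0.0325) and 3.59 ± 0.25 for Igfbp2-treated against WT (adjusted p = 1.80e-07). An antisense gene overlaps 8.25% of the exon bases of Adam19, and whether the counting used strand is not given in the sources used here. The treatment call was lost in 5 of the 12 fits that left out a library (vehicle-treated replicates 1, 2 and 3 and Igfbp2-treated replicates 2 and 3), with an adjusted p of up to 0.112, and also with the replicate block (adjusted p = 0.0625) and with library totals (0.46, adjusted p = 0.155).

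Adam12 (meltrin alpha), which cuts growth factor precursors and binding proteins, was at 19.6, 20.8, 17.3 and 22 CPM in WT, 64.5, 75.1, 75 and 108 CPM in vehicle-treated Ncf1-/-, and 91.7, 109, 128 and 98.3 CPM in Igfbp2-treated Ncf1-/- NSCs. The WT libraries lay below all others, while the Ncf1-/- groups overlapped through vehicle-treated replicate 4. It rose by a log2 fold change of 2.02 ± 0.16 in Ncf1-/- against WT NSCs (adjusted p = 4.60e-07), and had 0.41 ± 0.15 with Igfbp2 (adjusted p = 0.0633), which passed without vehicle-treated replicate 4 or WT replicate 3 (lowest adjusted p = 0.00606). Adam10, the main Notch sheddase, was at 105, 105, 144 and 112 CPM in WT, 148, 161, 164 and 211 CPM in vehicle-treated Ncf1-/-, and 189, 196, 216 and 201 CPM in Igfbp2-treated Ncf1-/- NSCs. The log2 fold change of Adam10 was 0.55 ± 0.13 against WT (adjusted p = 0.00213) and 0.23 ± 0.12 with Igfbp2 (adjusted p = 0.195; without vehicle-treated replicate 4, 0.0334). The other broad sheddase, Adam17, which releases tumor necrosis factor and EGF receptor ligands, was at 78.5 to 93.2 CPM in WT, 68.3 to 87.2 CPM in vehicle-treated and 87.2 to 95.7 CPM in Igfbp2-treated Ncf1-/- NSCs and was called in none of the 3 comparisons (adjusted p = 0.125, 0.051 and 0.399). Without vehicle-treated replicate 4 the first comparison (-0.28, adjusted p = 0.0101) and the treatment comparison (0.35, adjusted p = 0.01) of Adam17 passed. The treatment comparison also passed without WT replicate 3 (adjusted p = 0.046) and with DESeq2 (adjusted p = 0.0388). The first passed in edgeR with the replicate block (adjusted p = 0.046). That block matched WT to Ncf1-/- libraries by number alone, a match the methods do not describe, so it decides nothing.

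Adam9 and Adam15 are broadly expressed members of the group. Adam15 was at 30.7, 35.2, 57.2 and 59.9 CPM in WT, 53.1, 54.3, 63.8 and 61.7 CPM in vehicle-treated Ncf1-/-, and 89.4, 86.2, 91.2 and 88 CPM in Igfbp2-treated Ncf1-/- NSCs, so that WT replicates 1 and 2 were low and the Igfbp2-treated libraries the highest. Its log2 fold change was 0.35 ± 0.18 in Ncf1-/- against WT NSCs (adjusted p = 0.114; without WT replicate 3 or 4, 0.0322 and 0.0251) and 0.61 ± 0.18 with Igfbp2 (adjusted p = 0.0269). For Adam9 the treatment value was 0.29 ± 0.10 (adjusted p = 0.0458). The call of Adam15 was lost in 6 of the 12 fits that left out a library (vehicle-treated replicates 1 and 2 and each Igfbp2-treated replicate, adjusted p of up to 0.0766) and that of Adam9 in 9 (all but those without vehicle-treated replicate 4 or WT replicate 1 or 3, adjusted p of up to 0.144). An antisense gene overlaps 20.6% of the exon bases of Adam15. Both treatment calls were lost with the replicate block (adjusted p = 0.0678 for Adam15 and 0.0855 for Adam9), and with library totals the log2 fold change of Adam9 was 0.013. Adam8, known from leukocytes, went the other way, at 1.27, 1.62, 1.66 and 1.11 CPM in WT, 1.83, 2.08, 1.28 and 0.97 CPM in vehicle-treated Ncf1-/-, and 0.443, 0.721, 0.622 and 0.491 CPM in Igfbp2-treated Ncf1-/- NSCs. All 4 Igfbp2-treated libraries were below all others, with a log2 fold change of -1.42 ± 0.29 against vehicle (adjusted p = 0.00502) at a low level.

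The 3 ADAMs without protease activity, which act as adhesion molecules and as receptors of Lgi proteins at synapses, were all lower in Ncf1-/- than in WT NSCs. Their called share was 100%, while 57.2% of all genes were called and 28.2% were called lower. Adam22 was at 81.5, 79.3, 63.2 and 70.1 CPM in WT, 30.8, 32.1, 28.3 and 38.3 CPM in vehicle-treated Ncf1-/-, and 28.7, 35.7, 35.7 and 34.4 CPM in Igfbp2-treated Ncf1-/- NSCs, with WT above both other groups and those overlapping each other. Its log2 fold change was -1.18 ± 0.11 against WT (adjusted p = 2.22e-06) and 0.06 ± 0.11 with Igfbp2 (adjusted p = 0.747). Adam23 was at 25.2, 28.6, 7.37 and 29.8 CPM in WT, 2.22, 2.42, 3.27 and 3.13 CPM in vehicle-treated Ncf1-/-, and 2.66, 4.87, 4.5 and 4.08 CPM in Igfbp2-treated Ncf1-/- NSCs. WT replicate 3, the WT library with the lowest oligodendrocyte sum, was far below the other WT libraries and still above both Ncf1-/- groups. The log2 fold change against WT was -3.03 ± 0.37 (adjusted p = 1.65e-05), and -3.32 without WT replicate 3. Adam11 fell by less, with a log2 fold change of -0.90 ± 0.23 (adjusted p = 0.005), from 8.46 to 16.3 CPM in WT to 4.51 to 7.45 CPM. None of the 3 was called with Igfbp2, although Adam23 passed without WT replicate 3 (0.54, adjusted p = 0.0414). Some markers of neurons and astrocytes were lower as well: 5 neuron genes summed to between 82.7 and 138 CPM in WT and 21.0 to 24.0 CPM in vehicle-treated Ncf1-/- NSCs, and 4 astrocyte genes to between 4860 and 9717 CPM and between 1648 and 2165 CPM. Of the neuron genes 3 of 5 (Dcx, Tubb3 and Stmn2) fell, while Snap25 had 0.39 (adjusted p = 0.299) and Rbfox3 -0.29 (adjusted p = 0.341). Of the astrocyte genes 3 of 4 (Gfap, Aqp4 and S100b) fell, and Aldh1l1 had 0.65 (adjusted p = 0.232). The called shares of the neuron and astrocyte genes were 60% and 75%, against 57.2% of all genes. The part of these cells in the result was not tested.

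Of the other 21 ADAM genes, most of them testis genes, 13 had 0 counts and 3 were tested. Adam1a, a sperm protein in its known role, was at 2.53, 2.52, 1.81 and 1.98 CPM with vehicle and 1.05, 1.02, 0.765 and 0.736 CPM with Igfbp2, without overlap (log2 fold change -1.31 ± 0.24, adjusted p = 0.00319). Another annotated gene on the same strand covers 63.7% of its exon bases, so the count cannot be assigned to it with certainty.

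The 7 ADAMTS enzymes that cleave lecticans, the large proteoglycans of the brain matrix, split in direction. In Ncf1-/- NSCs 3 rose (Adamts1, Adamts8 and Adamts15) and 2 fell (Adamts4 and Adamts5) against WT (71.4% called, against 57.2% of all genes). Adamts1 was at 11.1, 14.1, 25.1 and 25 CPM in WT, 46.9, 53.6, 56.2 and 72 CPM in vehicle-treated Ncf1-/-, and 87.4, 92.9, 113 and 80.6 CPM in Igfbp2-treated Ncf1-/- NSCs. The 3 groups did not overlap, with log2 fold changes of 1.60 ± 0.24 (adjusted p = 7.87e-05) against WT and 0.71 ± 0.23 with Igfbp2 (adjusted p = 0.0391). The second call was lost in 7 of 12 fits that left out a library (vehicle-treated replicates 1, 2 and 3 and each Igfbp2-treated replicate, adjusted p of up to 0.117) and with the replicate block (adjusted p = 0.0845).

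Adamts4, which oligodendrocytes express, was at 311, 393, 83 and 185 CPM in WT, 72.1, 74.8, 77.9 and 84.1 CPM in vehicle-treated Ncf1-/-, and 115, 120, 122 and 122 CPM in Igfbp2-treated Ncf1-/- NSCs. WT replicates 1 and 2 were highest, and WT replicate 3 lay within the range of the vehicle-treated Ncf1-/- libraries. The oligodendrocyte marker sums of 8733, 8961, 1483 and 4945 CPM in WT replicates 1 to 4 had the same order. Between vehicle-treated and Igfbp2-treated Ncf1-/- libraries these sums overlapped (192 to 247 and 208 to 281 CPM). The part of oligodendrocytes in the Adamts4 level was not tested. Against WT the log2 fold change of Adamts4 was -1.65 ± 0.33 (adjusted p = 8.59e-04), and -1.94 without WT replicate 3. With Igfbp2 every library was above every vehicle-treated one, but the value of 0.63 ± 0.33 did not pass (adjusted p = 0.169). It passed without WT replicate 3 (adjusted p = 0.0131) and in an edgeR fit of the 2 groups alone (adjusted p = 8.32e-05). Adamts9, which also acts on versican, was at 44.7 to 96 CPM in WT, 43.2 to 69.4 CPM with vehicle and 60.9 to 90 CPM with Igfbp2, and was not called in any comparison (adjusted p = 0.0956, 0.114 and 0.867). Without WT replicate 3 or vehicle-treated replicate 4 the first comparison (adjusted p = 0.00745 and 0.0278) and the treatment comparison (adjusted p = 0.0363 and 0.0484) of Adamts9 passed. With the 2 groups alone its treatment comparison passed as well (adjusted p = 0.0397).

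Adamts14 (chr10:61197112-61273438), a procollagen N-proteinase that removes the amino-terminal propeptide of fibrillar collagens, had the largest rise of all 50 genes. It was at 0.091, 0.054, 2.18 and 0.557 CPM in WT, 21.4, 23, 30 and 34.2 CPM in vehicle-treated Ncf1-/-, and 92.5, 97.7, 122 and 87.1 CPM in Igfbp2-treated Ncf1-/- NSCs. In WT replicate 2 the gene was almost unread, and WT replicate 3 held the highest WT value, yet the 3 groups were far apart. The log2 fold change was 4.95 ± 0.51 in Ncf1-/- against WT NSCs (adjusted p = 3.74e-06), 1.88 ± 0.38 with Igfbp2 (adjusted p = 0.00486) and 6.83 ± 0.52 for Igfbp2-treated against WT (adjusted p = 3.73e-07). Without WT replicate 3 the first and the last were 6.89 and 8.77, so the size against WT rests on that library. With library totals the treatment value was 1.61 and passed (adjusted p = 0.00781). DESeq2 gave log2 fold changes of 5.22, 1.87 and 7.09 for Adamts14 but no adjusted p.

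The 2 related enzymes were lower in level. Adamts3, which also acts on VEGF-C and reelin, was at 4, 3.72, 4.88 and 4.06 CPM in WT, 5.66, 7.35, 7.95 and 10.7 CPM in vehicle-treated Ncf1-/-, and 10.2, 12.1, 18.7 and 9.23 CPM in Igfbp2-treated Ncf1-/- NSCs, with WT below both other groups. It rose by 0.92 ± 0.24 against WT (adjusted p = 0.00466), and its treatment value of 0.66 ± 0.23 (adjusted p = 0.0481) was called in 3 of the 12 fits that left out a library (vehicle-treated replicate 4, Igfbp2-treated replicate 4 and WT replicate 3) and reached an adjusted p of 0.192 without Igfbp2-treated replicate 3. It was lost with the replicate block (adjusted p = 0.0622) and with library totals (0.40, adjusted p = 0.216). Adamts2 was at 5.18 CPM or less in every library and had -1.27 ± 0.37 against WT (adjusted p = 0.00949) with overlapping groups. Mesenchymal markers as a sum rose with Igfbp2 only: 8 such genes summed to between 12.7 and 25.3 CPM in WT, 14.5 to 17.9 CPM with vehicle and 36.8 to 47.6 CPM with Igfbp2, with Lum at 0 counts in WT and at most 0.0601 CPM elsewhere. The WT and vehicle sums overlapped, but of the 6 tested markers 5 rose against WT (Col3a1, Acta2, Col1a1, Col1a2 and Tagln) and 1 fell, Pdgfrb, with a log2 fold change of -5.36. With Igfbp2 4 rose (Tagln, Pdgfrb, Col1a2 and Col1a1), while Col3a1 had 0.31 (adjusted p = 0.424) and Acta2 1.11 (adjusted p = 0.134). The called shares of these markers were 100% against WT and 66.7% with Igfbp2, against 57.2% and 25.0% of all genes. The part of such cells in the result was not tested.

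Of the 9 remaining ADAMTS genes 6 were tested, and 5 of these rose in Ncf1-/- against WT NSCs (83.3% called, against 57.2% of all genes). With Igfbp2 0 rose and 2 fell (33.3%, against 25.0%). Adamts6, which acts in the fibrillin matrix, was at 5.59, 5.56, 10.1 and 6.29 CPM in WT, 19.7, 21.5, 18.3 and 21.4 CPM in vehicle-treated Ncf1-/-, and 9.14, 11.4, 12.3 and 10.5 CPM in Igfbp2-treated Ncf1-/- NSCs. Its vehicle-treated libraries were above all others, and the WT and Igfbp2-treated ranges overlapped through WT replicate 3. The log2 fold change was 1.54 ± 0.18 against WT (adjusted p = 9.39e-06), -0.90 ± 0.17 with Igfbp2 (adjusted p = 0.00372) and 0.64 ± 0.18 for Igfbp2-treated against WT (adjusted p = 0.00724). Adamts10, its close relative, was at 7.46, 8.69, 10.9 and 7.96 CPM in WT, 19.3, 18.5, 17.8 and 14.4 CPM in vehicle-treated Ncf1-/-, and 10.4, 11.1, 10.6 and 10.1 CPM in Igfbp2-treated Ncf1-/- NSCs. Vehicle-treated libraries were again the highest, with 0.99 ± 0.13 against WT (adjusted p = 2.40e-05), -0.73 ± 0.13 with Igfbp2 (adjusted p = 0.00241) and 0.26 ± 0.13 for Igfbp2-treated against WT, which was not called (adjusted p = 0.0959) but passed without WT replicate 3 (adjusted p = 0.00966). For both genes the first pair of comparisons shares the vehicle-treated libraries, so that their opposite signs are not independent.

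Adamts19, on chromosome 18, was at 0.182, 0, 0.717 and 0.334 CPM in WT, 5.05, 5.9, 5.47 and 7.09 CPM in vehicle-treated Ncf1-/-, and 3.43, 2.82, 4.97 and 2.26 CPM in Igfbp2-treated Ncf1-/- NSCs. The 3 groups did not overlap. It had 4.05 ± 0.47 against WT (adjusted p = 1.13e-05), where the WT level was at most 0.717 CPM. Left out in turn, the libraries gave 3.69 to 5.06 for this value. With Igfbp2 Adamts19 had -0.80 ± 0.38, which did not pass (adjusted p = 0.136). It passed without WT replicate 2 or 3 (lowest adjusted p = 0.0411) and with library totals (adjusted p = 0.0477). In an edgeR fit of the 2 groups alone the treatment value also passed (adjusted p = 0.00799). Adamts7 and Adamts12, which both cleave cartilage oligomeric matrix protein, rose against WT by 0.88 ± 0.23 (adjusted p = 0.00545) and 1.57 ± 0.45 (adjusted p = 0.00932). Adamts12 was at 0.591, 0.702, 4.65 and 1.67 CPM in WT, 5.97, 5.56, 5.03 and 7.57 CPM in vehicle-treated Ncf1-/-, and 10.7, 10.5, 11.4 and 13 CPM in Igfbp2-treated Ncf1-/- NSCs, and without WT replicate 3 its value against WT was 2.64. Its treatment value of 0.92 ± 0.42 (adjusted p = 0.122) also passed without that library (adjusted p = 0.00443) and with the 2 groups alone (adjusted p = 3.77e-04).

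Of the 5 ADAMTS-like genes, whose products bind fibrillin and the matrix, 1 fell in Ncf1-/- NSCs and 1 rose with Igfbp2. The called share was 20% in each comparison, against 57.2% and 25.0% of all genes. Adamtsl3 was at 9.01, 13.4, 4.3 and 4.01 CPM in WT, 2.48, 2.56, 2.91 and 2.87 CPM in vehicle-treated Ncf1-/-, and 3.21, 3.79, 4.69 and 4.03 CPM in Igfbp2-treated Ncf1-/- NSCs, and fell with a log2 fold change of -1.49 ± 0.33 (adjusted p = 0.00171). Adamtsl1 was at 1.96, 1.4, 12.7 and 1.84 CPM in WT, and at 7.86 to 9.15 and 8.36 to 9.62 CPM in the Ncf1-/- groups. WT replicate 3 was above every Ncf1-/- library and the other WT libraries were below them. With all libraries the log2 fold change against WT was 0.83 ± 0.53 (adjusted p = 0.192), and 2.27 without WT replicate 3 (adjusted p = 2.27e-08). Adamtsl4 had 1.10 ± 0.33 with Igfbp2 (adjusted p = 0.0291) at 1.12 to 1.48 CPM with vehicle and 2.3 to 3.25 CPM with Igfbp2, and this call was lost in 7 of 12 fits that left out a library (each vehicle-treated replicate and Igfbp2-treated replicates 1, 2 and 4), with the replicate block (adjusted p = 0.074) and with library totals (0.83, adjusted p = 0.0692).

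**Figure D3:**
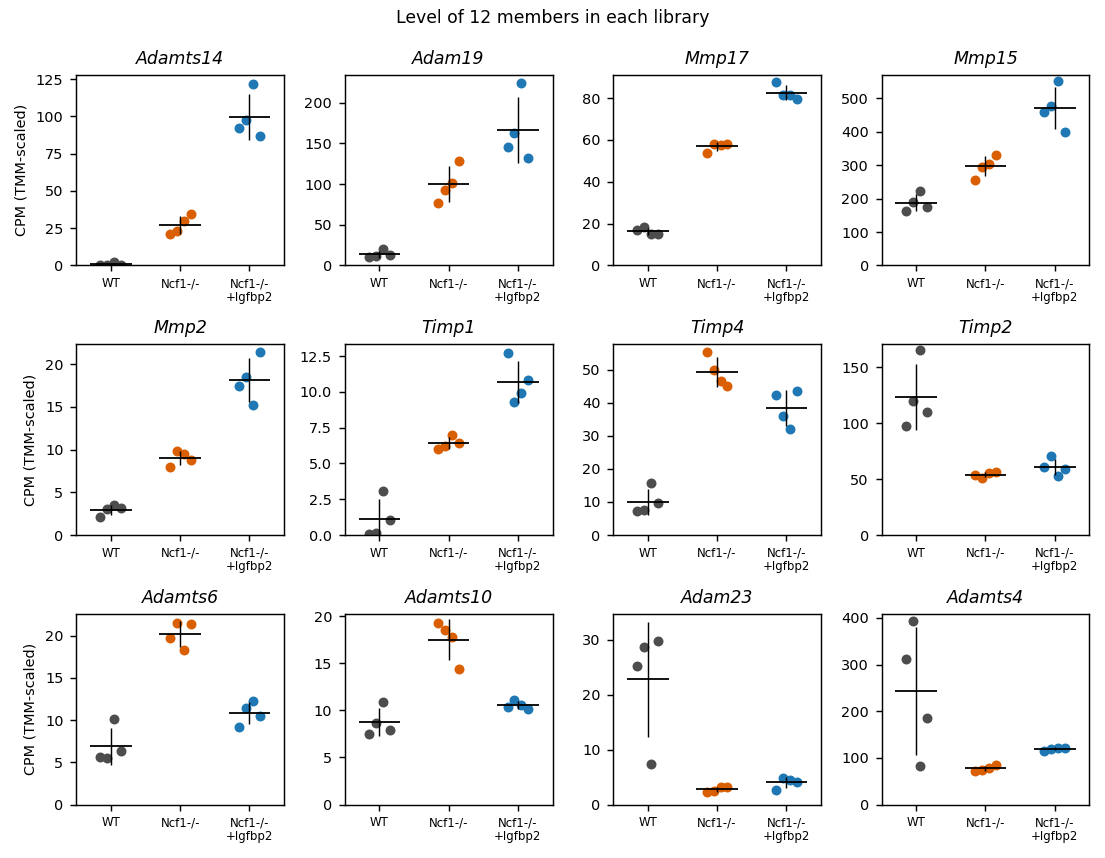
CPM (vertical axis, starting at 0, TMM-scaled) of 12 genes in each library of the 3 groups (horizontal axis), with the group mean as a line and the SD as a bar that is not drawn below 0. Adamts14, Adam19, Mmp17 and Mmp2 stepped up from WT through vehicle-treated to Igfbp2-treated Ncf1-/- NSCs with no overlap, and Adamts6 and Adamts10 were highest with vehicle.

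Of the 6 membrane-type MMPs, which work at the cell surface, 5 were tested, and Mmp14 and Mmp15 had the highest mean levels per length of the tested MMPs in every group. Mmp17, a GPI-anchored member at chr5:129584169-129611099, was at 16.8, 18.4, 15.1 and 15 CPM in WT, 53.8, 57.9, 57.7 and 58.1 CPM in vehicle-treated Ncf1-/-, and 87.6, 81.7, 81.6 and 79.7 CPM in Igfbp2-treated Ncf1-/- NSCs. The 3 groups were well separated and the spread within each was small. The log2 fold change was 1.80 ± 0.08 in Ncf1-/- against WT NSCs (adjusted p = 1.22e-08), 0.54 ± 0.07 with Igfbp2 (adjusted p = 9.10e-04) and 2.34 ± 0.08 for Igfbp2-treated against WT (adjusted p = 1.72e-09). With library totals the treatment value was 0.27 and passed (adjusted p = 0.0212), while on the TPM scale of limma it was -0.0025.

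Mmp15, with the highest mean CPM of the 50 genes, was at 163, 190, 222 and 176 CPM in WT, 257, 296, 304 and 330 CPM in vehicle-treated Ncf1-/-, and 458, 477, 552 and 400 CPM in Igfbp2-treated Ncf1-/- NSCs. Again the groups did not overlap, with 0.66 ± 0.12 against WT (adjusted p = 4.77e-04) and 0.67 ± 0.12 with Igfbp2 (adjusted p = 0.00299). With library totals the treatment value was 0.40 and passed (adjusted p = 0.0454), and with limma on log2(TPM + 1) it was 0.19 and did not (adjusted p = 0.514). Mmp14, the activator of pro-Mmp2, was at 125, 133, 199 and 175 CPM in WT, 161, 179, 190 and 192 CPM in vehicle-treated Ncf1-/-, and 237, 246, 250 and 240 CPM in Igfbp2-treated Ncf1-/- NSCs. WT and vehicle-treated libraries overlapped and the Igfbp2-treated ones were the highest. It had 0.19 ± 0.13 against WT (adjusted p = 0.228), which passed without WT replicate 3 (adjusted p = 0.0233), and 0.43 ± 0.13 with Igfbp2 (adjusted p = 0.0298), which was lost in 7 of 12 fits that left out a library (vehicle-treated replicates 1, 2 and 3 and each Igfbp2-treated replicate) and with the replicate block (adjusted p = 0.0689).

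Mmp16 moved the other way, at 45.2, 47.5, 32.8 and 37.4 CPM in WT, 22, 20.3, 19.5 and 24.8 CPM in vehicle-treated Ncf1-/-, and 14.1, 15.1, 16.9 and 16.3 CPM in Igfbp2-treated Ncf1-/- NSCs. The 3 groups did not overlap, WT being the highest. Its log2 fold change was -0.91 ± 0.12 against WT (adjusted p = 3.26e-05) and -0.47 ± 0.12 with Igfbp2 (adjusted p = 0.017; without vehicle-treated replicate 4, 0.0521). Mmp24, known from neurons, had -0.61 ± 0.25 against WT with overlapping groups (adjusted p = 0.0475), a call lost in 8 of the 12 fits that left out a library (vehicle-treated and Igfbp2-treated replicates 1, 2 and 4 and WT replicates 2 and 3, adjusted p of up to 0.192). An antisense gene overlaps 13.6% of the exon bases of Mmp24.

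Mmp2 (gelatinase A, chr8:92827291-92853420), which degrades type IV collagen, was at 2.14, 3.08, 3.47 and 3.17 CPM in WT, 7.97, 9.87, 9.49 and 8.84 CPM in vehicle-treated Ncf1-/-, and 17.4, 18.5, 15.2 and 21.4 CPM in Igfbp2-treated Ncf1-/- NSCs. Each group was above the one before, with 1.60 ± 0.16 against WT (adjusted p = 2.38e-06), 1.0 ± 0.14 with Igfbp2 (adjusted p = 9.56e-04) and 2.6 ± 0.16 for Igfbp2-treated against WT (adjusted p = 5.82e-08). The treatment call was also made with library totals (0.72, adjusted p = 0.00276) and with limma on log2(TPM + 1) (0.38, adjusted p = 0.0435). The other gelatinase, Mmp9, did not pass the filter on low counts. The mesenchymal markers given beside Adamts14 also rose with Igfbp2 in 4 of 6 cases, and their part was not tested.

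Among the remaining MMPs, Mmp28 (epilysin), a secreted enzyme of epithelia and neural tissue, was at 0.819, 0.81, 1.89 and 2.78 CPM in WT, 2.09, 3, 2.38 and 2.65 CPM in vehicle-treated Ncf1-/-, and 5.81, 5.95, 5.12 and 7.76 CPM in Igfbp2-treated Ncf1-/- NSCs. The Igfbp2-treated libraries were above all others, with 1.28 ± 0.31 against vehicle (adjusted p = 0.0112), and an antisense gene overlaps 12% of its exon bases. Mmp12 was at 1.61, 1.79, 1.24 and 1.87 CPM with vehicle and 0.388, 0.781, 0.574 and 0.982 CPM with Igfbp2, with a log2 fold change of -1.25 ± 0.29 (adjusted p = 0.00957). Microglia, a source of Mmp12 in brain, were represented by 6 marker genes that summed to at most 1.45 CPM in any library. Mmp11 (stromelysin 3) was at 1.63 to 1.89 CPM in WT and 0.56 to 1 CPM with vehicle, with a log2 fold change of -1.32 ± 0.31 (adjusted p = 0.00231).

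All 4 TIMPs were tested, and against WT 2 rose and 2 fell in vehicle-treated Ncf1-/- NSCs (100% called, against 57.2% of all genes). Timp4, the inhibitor with the most restricted tissue pattern, was at 7.23, 7.5, 15.7 and 9.63 CPM in WT, 55.3, 49.8, 46.6 and 45 CPM in vehicle-treated Ncf1-/-, and 42.4, 35.9, 32.1 and 43.7 CPM in Igfbp2-treated Ncf1-/- NSCs. WT was below both other groups, and Igfbp2-treated libraries were below vehicle-treated ones. The log2 fold change was 2.28 ± 0.21 against WT (adjusted p = 1.75e-06) and -0.35 ± 0.20 with Igfbp2, which did not pass (adjusted p = 0.207). On these 2 groups alone, the two-sided exact permutation test gave p = 0.0286, the smallest that 4 against 4 libraries can give. The treatment value passed without WT replicate 3 (adjusted p = 0.0337), with library totals (-0.63, adjusted p = 0.0287) and with edgeR on the 2 groups alone (adjusted p = 0.01).

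Timp1, the inducible inhibitor, was at 0.091, 0.162, 3.1 and 1.06 CPM in WT, 6.01, 6.19, 6.98 and 6.42 CPM in vehicle-treated Ncf1-/-, and 12.7, 9.32, 9.95 and 10.8 CPM in Igfbp2-treated Ncf1-/- NSCs. The groups did not overlap, but the WT values ran from near 0 to 3.1 CPM. Against WT the log2 fold change was 2.37 ± 0.56 (adjusted p = 0.00286), or 3.93 without WT replicate 3, and with Igfbp2 it was 0.74 ± 0.49 (adjusted p = 0.288), which passed without that library (adjusted p = 0.0398). Its treatment value also passed in an edgeR fit of the 2 groups alone (adjusted p = 4.95e-04). DESeq2 gave 2.53 and 0.73 for Timp1, again with no adjusted p. Timp2, which also takes part in the activation of pro-Mmp2, was at 97.5, 120, 165 and 110 CPM in WT, 53.6, 50.8, 55 and 56.3 CPM in vehicle-treated Ncf1-/-, and 60.4, 70.3, 53 and 59.1 CPM in Igfbp2-treated Ncf1-/- NSCs. All WT libraries were above all others, with -1.19 ± 0.14 against WT (adjusted p = 1.30e-05) and 0.17 ± 0.14 with Igfbp2 (adjusted p = 0.395). Timp3, the matrix-bound inhibitor that also blocks ADAM and ADAMTS enzymes, was at 147, 172, 161 and 237 CPM in WT, 95.5, 100, 101 and 99.5 CPM in vehicle-treated Ncf1-/-, and 121, 121, 114 and 141 CPM in Igfbp2-treated Ncf1-/- NSCs. It was -0.86 ± 0.13 against WT (adjusted p = 8.66e-05), and with Igfbp2 0.32 ± 0.13 (adjusted p = 0.0801), which passed without WT replicate 4 (adjusted p = 0.0242) and with the 2 groups alone (adjusted p = 0.0138). Timp1, Timp3 and Timp4 lie within the synapsin genes Syn1, Syn3 and Syn2, and exons of Syn3 on the opposite strand cover 21.3% of the exon bases of Timp3.

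Summed per length, the role groups kept different courses, given here as descriptions without a test. The membrane-type MMPs summed to 132 ± 17.7 CPM per kb in WT, 168 ± 13.8 in vehicle-treated and 236 ± 18 in Igfbp2-treated Ncf1-/- NSCs (SD, n = 4), and the sheddase ADAMs to 112 ± 17.4, 161 ± 15.9 and 211 ± 13.2. The 4 TIMPs together summed to 90.2 ± 16.1, 89.6 ± 3.69 and 92.5 ± 9.25, although each of them differed between WT and Ncf1-/- NSCs. Timp4 and Timp1 had risen while Timp2 and Timp3 had fallen. The procollagen N-proteinases went from 2.31 ± 0.707 to 8.40 ± 1.92 and 24.6 ± 4.46, most of it Adamts14. All Adam, Adamts and Mmp genes together summed to 363 ± 16.8, 418 ± 34.5 and 571 ± 39.7, and the share of TIMPs in the total of the 85 genes was 19.6%, 17.6% and 13.9%. These sums follow the TMM scaling.

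**Figure D4:**
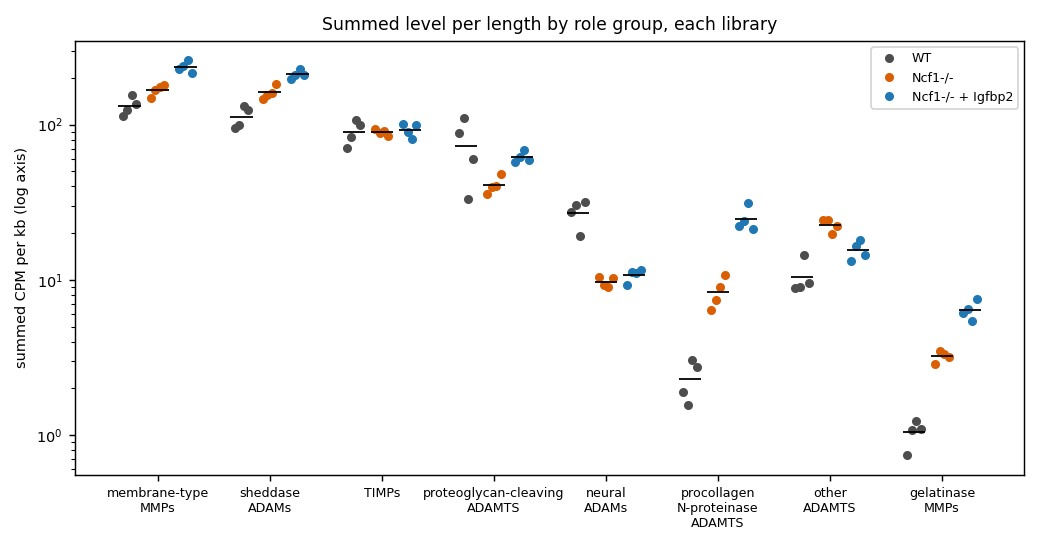
Summed level per length (vertical axis, CPM per kb, log axis) of 8 role groups (horizontal axis) in each library, with the mean of each group of 4 libraries as a line. The TIMP sums overlap in all 3 groups (means 90.2, 89.6 and 92.5), while the procollagen N-proteinases and gelatinases are apart in all 3.

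Genes that act with these families were counted from lists of activators and regulators, of lecticans and their partners, and of proteins that ADAMs shed. The genes named from them passed the edgeR test in each comparison for which a fold change is given. Of 54 such genes 47 were tested, and 9 rose and 21 fell in Ncf1-/- against WT NSCs, 17 rose and 1 fell with Igfbp2, and 16 rose and 18 fell in Igfbp2-treated against WT NSCs. The called shares of 63.8%, 38.3% and 72.3% stood against 57.2%, 25.0% and 62.4% of all genes. With Igfbp2, 14.2% of all genes were called higher and 10.7% lower. These counts, and those of the single lists below, were made with TMM scaling only. Library totals moved the treatment median of all genes from 0.04 to -0.23, and the lists were not recounted under them, with the block or with libraries left out. Among the lecticans and partners, 2 of 8 rose and 5 fell against WT (87.5% called), and 3 rose and 0 fell with Igfbp2 (37.5%). Tnr, the tenascin that crosslinks lecticans, went from 1681 ± 602 CPM in WT (SD, n = 4) to 64.8 ± 5.62 and 87.5 ± 17.9 CPM in vehicle-treated and Igfbp2-treated Ncf1-/- NSCs. Reln, the secreted glycoprotein reelin that Adamts enzymes cleave, went from 38.2 ± 15.4 to 2.3 ± 0.713 and 5.73 ± 1.62 CPM, with log2 fold changes of -4.03 ± 0.35 and, with Igfbp2, 1.30 ± 0.36. Hapln3, a link protein, had 1.89 ± 0.35 against WT.

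Of 24 tested activators and regulators 6 rose and 8 fell against WT, and 7 rose and 0 fell with Igfbp2, called shares of 58.3% and 29.2% that lay near the 57.2% and 25.0% of all genes. Papln, an ADAMTS-like matrix protein outside the symbol rule, was at 0.919 ± 0.887 CPM in WT, 7.48 ± 0.934 CPM with vehicle and 21 ± 3.86 CPM with Igfbp2 (log2 fold changes 2.87 ± 0.41 and 1.49 ± 0.34). Plat, the tissue plasminogen activator, rose against WT from 148 ± 79.6 to 456 ± 16.4 CPM. Thsd4, another ADAMTS-like protein, fell with a log2 fold change of -6.22 ± 0.65 from 11.7 ± 7.66 to 0.152 ± 0.121 CPM. With Igfbp2 the urokinase receptor Plaur had 1.72 ± 0.41 at 1.08 to 2.87 CPM. Rhbdf2, a partner of Adam17 in its maturation, was higher in Igfbp2-treated Ncf1-/- than in WT NSCs, with a log2 fold change of 2.42 ± 0.48.

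Of 15 tested proteins that ADAMs shed, 1 rose and 8 fell against WT (60% called, against 57.2% of all genes), and 7 rose and 1 fell with Igfbp2 (53.3%, against 25.0%). Hbegf, a precursor of an EGF receptor ligand, was at 7.41, 8.71, 9.32 and 11 CPM with vehicle and 30.5, 24.7, 40 and 20.2 CPM with Igfbp2 (log2 fold change 1.66 ± 0.24, adjusted p = 0.00107). The Notch ligand Dll1 fell with Igfbp2, with a log2 fold change of -0.64 ± 0.18 (adjusted p = 0.0241), from 76.6 ± 7.74 to 49 ± 6.05 CPM. L1cam, a neural adhesion molecule, was at 2.84 ± 0.869 CPM in WT and 0.29 ± 0.176 CPM in Igfbp2-treated Ncf1-/- NSCs, a difference of -3.21 ± 0.40 (adjusted p = 1.73e-05).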

How the data were processed

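Ribosome-depleted total RNA of 12 NSC cultures, 1 library each, was sequenced. The authors mapped reads with Bowtie2 and quantified genes with RSEM, and the submitters' processing notes name the build GRCm38. The versions, the annotation release and the strand setting are not given in the sources used here. The deposited files of each library hold the expected count per gene, the TPM (a length-corrected share of transcripts) and the FPKM, with gene and effective lengths, and 15.9% of the expected counts over all genes and libraries, zeros included, had a fractional part, with no tolerance. The merged table deposited by the authors holds TPM values with symbols, and columns that were rescaled, treated as a score and not used. FPKM values deposited by the authors were not used either.

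Expected counts were rounded, filtered with filterByExpr, scaled with TMM factors and tested over all 15706 genes with the quasi-likelihood test of edgeR 4.0.16 (R 4.3.3), with Benjamini-Hochberg adjustment and a two-sided threshold of 0.05. All 12 libraries entered 1 fit with a mean per group. Log2 fold changes are given with their standard error. The study itself used ANOVA with Tukey's test on TPM, which was run as an alternative beside DESeq2 1.42.0, limma 3.58.1 on log2(TPM + 1) and log2(TPM + 0.1), other filters, scalings, thresholds and covariates, a replicate block and leaving out each library. On simulated counts of 15596 genes for Ncf1-/- against WT, 200 of 200 genes changed by a log2 fold change of 1.5 were recovered, with 8 false calls. These changes were placed only in genes of higher counts, with 1 dispersion of 0.04 in all groups. Recovery for genes of low counts, for many changed genes or for a wider spread in WT, as in these data, was not tested. The closest pair of replicates differed by more than sampling noise.

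Members, role groups and lists were chosen with earlier results of these data known. Named were the 4 TIMPs, every member with a mean of at least 5 CPM, the 4 largest called rises and falls in each comparison among members with at least 1 CPM in a group, and the 3 largest called rises and falls of the associated genes, of which 1 is not reported here. The rule gave 37 members, and other members named were chosen after their values were seen. Overlaps and gene positions were read from GENCODE M21 on GRCm38. The methods of the study state that the vehicle-treated and Igfbp2-treated cultures were paired by animal. The deviations of same-numbered libraries from their group means correlated between -0.0673 and 0.0328 over 4 pairs, so the block was kept as an alternative. The labels name the dose of 100 ng/ml, and the methods a lower one. Replicates are cultures of separate pups according to the methods, and this was not tested. All vehicle-treated libraries held both Y-linked RNA (summed to 105 to 116 CPM) and Xist (72.3 to 87.8 CPM). All Igfbp2-treated libraries were low in Y-linked RNA (7.79 to 9.18 CPM), with Xist at 166 to 275 CPM. The p-values and standard errors measure the spread between libraries, which is that between animals only if the replicates are separate pups.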

Additional observations from a re-analysis of the deposited data

Results flagged for a closer look

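In 3 of 111 groups of 4 libraries, 1 library stood apart from the other 3 by Dixon's criterion, which compares the gap to the nearest library with the range, and chance flags about 1 in 20 groups. Adamtsl1 was at 12.7 CPM in WT replicate 3, the highest of WT, with a gap of 0.951 of the range. Adamts6 was at 10.1 CPM in the same library, again the highest of WT, with a gap of 0.839. Mmp17 was at 53.8 CPM in vehicle-treated Ncf1-/- replicate 1, the lowest of its group, with a gap of 0.899.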

How the results depend on the processing

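The count of called genes against the 32, 18 and 40 given in the report (Ncf1-/- against WT, Igfbp2 against vehicle, and Igfbp2-treated against WT) moved by over 1.5 times under several alternatives. The 5 CPM filter left 29 of the genes for testing, limma 27, the 2 groups alone 49, 46 and 46, DESeq2 47, and ANOVA and no filter 62, against 50 otherwise (51 without some libraries). DESeq2 called 31, 19 and 39, and gave Adamts14, Adamtsl1 and Timp1 no adjusted p, so their calls count as neither kept nor lost. For Ncf1-/- against WT the count was 21 with a log2 fold change of at least 1, 20 with limma on log2(TPM + 1), 20 with log2(TPM + 0.1) and 12 with ANOVA and Tukey's test. For Igfbp2 against vehicle it was 9 among genes of at least 5 CPM, 29 with the 2 groups only, 9 at an adjusted p of 0.01, 7 with a log2 fold change of at least 1, 8 and 7 with limma, 6 with ANOVA and Tukey's test, and 0 with the Y-linked covariate, where 5 of all genes passed. Left out in turn, the libraries gave 32 to 37, 11 to 28 and 37 to 42. For Igfbp2-treated against WT it was 24 among genes of at least 5 CPM, 18 and 18 with limma and 23 with ANOVA and Tukey's test. With the replicate block the counts were 34, 12 and 39. The block ended the treatment calls of Adam9 (adjusted p = 0.0855), Adam15, Adam19, Adamts1, Adamts3, Adamtsl4 and Mmp14, and the calls of Mmp24 against WT and of Adamtsl3 in Igfbp2-treated against WT NSCs. The pairing of vehicle-treated and Igfbp2-treated cultures rests on the methods, and the Y-linked genes, high in all vehicle-treated and low in all Igfbp2-treated libraries, go against it. In the comparisons with WT the block also matched WT to Ncf1-/- libraries by number alone. The methods describe no such match, so the block results against WT decide nothing.

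The signs that turned belonged to log2 fold changes between -0.57 (Mmp24 in Igfbp2-treated against WT) and 0.54 (Adam23, Adamtsl3 and Mmp17 with Igfbp2). Of them 3 had been called, those of Adam9, Mmp14 and Mmp17 with Igfbp2, Mmp17 with an edgeR adjusted p of 9.10e-04. For Igfbp2 against vehicle, limma on log2(TPM + 1) and then on log2(TPM + 0.1) gave -0.17 and -0.17 for Adam10, -0.024 and -0.029 for Adam12, -0.20 and -0.22 for Adam17, -0.19 and -0.23 for Adam22, -0.18 and -0.19 for Adam9, -0.034 and -0.041 for Adamts9, -0.35 and -0.61 for Adamtsl1, -0.071 and -0.073 for Mmp14, -0.0025 and -0.0043 for Mmp17, -0.38 and -0.41 for Timp2, and -0.18 and -0.19 for Timp3. In Igfbp2-treated against WT NSCs they gave -0.30 and -0.33 for Adam17, -0.24 and -0.36 for Adamts10, and -0.26 and -0.31 for Adamts9. On the scale of the ANOVA the treatment values were -0.16 for Adam10, -0.21 for Adam17, -0.19 for Adam22, -0.18 for Adam9, -0.027 for Adamts9, -0.32 for Adamtsl1, -0.021 for Adamtsl3, -0.26 for Mmp11, -0.063 for Mmp14, -0.18 for Mmp24, -0.37 for Timp2 and -0.18 for Timp3, and those against WT were -0.30 for Adam17, -0.23 for Adamts10, -0.25 for Adamts9 and -0.03 for Adamtsl4. Library totals gave treatment values of -0.044 for Adam10, -0.022 for Adam17, -0.22 for Adam22, -0.18 for Adamtsl1, -0.22 for Mmp11, -0.23 for Mmp24 and -0.10 for Timp2, values of -0.0054 for Adam17 and -0.035 for Adamts9 in Igfbp2-treated against WT, and 0.016 for Adam17 in Ncf1-/- against WT NSCs. With library totals and limma on log2(TPM + 1), the median of all genes moved to -0.23 and -0.35 for the treatment. The Y-linked level nearly coincides with the treatment, and the fit with it as a covariate cannot separate them. That fit gave treatment values of -0.013 for Adam23, 0.55 for Adamts7, -0.016 for Mmp11 and -0.18 for Timp3, and -0.023 for Adam17 and 0.013 for Mmp24 in Igfbp2-treated against WT. Among genes of at least 5 CPM, Adam22 was -0.0034 and Mmp24 -0.02 with Igfbp2, and Adamts9 -0.0037 against WT, and with the 2 groups only Mmp24 was -0.0063. Left out in turn, the libraries gave ranges of -0.042 to 0.16 for Adam22, -0.23 to 0.26 for Mmp11 and -0.062 to 0.098 for Mmp24 with Igfbp2, -0.14 to 0.15 for Adamts9 in Igfbp2-treated against WT, and -0.068 to 0.24 for Adam8 and -0.033 to 0.19 for Mmp12 in Ncf1-/- against WT. Apart from these constructions, the cause was not tested.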
